A study of Danio rerio with 48 samples.

Results

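Homozygous *smn1* mutant larvae of the zebrafish were compared with their wild-type siblings by RNA-Seq. The 3 mutant libraries and the 3 sibling libraries were taken by their sample titles, and they are 6 of the 48 libraries of the series. The mutants carried the nonsense allele fh229 on both copies of *smn1* in the TAB-5 background, and the controls were siblings of the same background without the mutation. All larvae, mutants and siblings alike, came from a cross of 1 pair of heterozygous parents. At an age of 5 dpf they spent 2 h in copper sulfate at 10 µM, and they were collected at 7 dpf. Copper sulfate kills the hair cells of the lateral line, so both groups were 2 days into regeneration when they were sampled. Bodies were pooled by genotype, which was read from a fin biopsy. The methods give 1 parental pair and do not describe how the larvae were divided into replicates 1 to 3. The p-values therefore measure only how the difference between mutant and sibling varied among same-numbered pairs of these libraries. That spread may be partly technical. For comparison, homozygous *gemin5* mutants (allele hg80) and homozygous *gemin3* mutants (allele hg105), each with 3 libraries and 3 libraries of their own wild-type siblings, were used. These had the same background, copper exposure and age.

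Smn1 is the central protein of the SMN complex, which loads a ring of Sm proteins onto the small nuclear RNAs (snRNAs). The resulting snRNPs are the building blocks of the spliceosome, the machine that removes introns from pre-mRNA. Loss of *SMN1* in humans causes spinal muscular atrophy, a motor neuron disease. In zebrafish, maternal product carries embryos through early development, so that homozygous mutants can be studied as larvae.

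The libraries held 30045993 to 35643027 expected counts, the estimates of reads per gene that RSEM gives. Levels are given as CPM, a gene's share of the counts of its library on a common scale, after TMM scaling of the library totals, and the mutants were compared with the siblings by edgeR's quasi-likelihood test. The replicate number was kept as a block, so that mutant replicate 1 was set against sibling replicate 1 and so on. Same-numbered libraries deviated together from their group means across 22797 genes, with correlations of 0.505, 0.703 and 0.595, while differently numbered libraries gave -0.499 to -0.038. Deviations from a group mean cancel within the group, so positive same-numbered correlations push the others toward negative values. The negative values are therefore not separate evidence of pairing. Adjusted p-values (Benjamini-Hochberg over all genes tested) below 0.05 are called here. Among the 11292 genes of at least 10 CPM, the median standard error of a log2 fold change was 0.0758. Markers of muscle, lens, pancreas, liver, nerve, blood and sensory organs were all detected, so the libraries hold RNA of many tissues. The muscle list, for example, summed to 114500 to 128000 CPM in siblings and 137800 to 162400 CPM in mutants.

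The mutated gene was examined first. The *smn1* mRNA (ENSDARG00000018494) was measured at 10.5, 10.8 and 10.7 CPM in siblings 1 to 3 and at 9.90, 10.6 and 11.2 CPM in mutants 1 to 3. The groups overlapped, and the mutant mean was 99.3% ± 6.14 (SD, n = 3) of the sibling mean. The amount of *smn1* mRNA therefore does not check the labels of these libraries. None of the 9 genes of the SMN complex was called by edgeR or DESeq2, and 0 were at an unadjusted p below 0.05. Their log2 fold changes lay between -0.011 for *smn1* itself and 0.13 for *GEMIN7*, with a median of 0.093. *GEMIN5*, the member that recognizes snRNAs, was measured at 18.1, 16.8 and 13.5 CPM in siblings and at 18.2, 17.2 and 16.0 CPM in mutants. *STRAP*, the most abundant member by CPM, was at 49.5, 50.2 and 53.2 CPM in siblings and 51.7, 50.1 and 51.9 CPM in mutants.

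Beyond the complex, 193 genes rose in the mutants, which is 0.847% of the 22797 genes tested, and 157 fell, which is 0.689%. The 350 genes make up 1.54% of those tested. An unadjusted p below 0.05 by edgeR was seen for 4000 of the 22797. These values over all genes are the background for the counts given for each list below. The test was blocked on the same-numbered pairs, so agreement among pairs is largely built into the calls. Of the genes that rose, 192 were higher in the mutant of every same-numbered pair, and of the genes that fell, 156 were lower in every pair. Mutant and sibling libraries did not overlap for 151 of the former and 136 of the latter, and the same held for 12.1% of all genes tested. More than 2-fold changes were seen for 61 genes that rose and 49 that fell. The median log2 fold change over all genes tested was 0.008 after TMM scaling, which centres it near 0. The number of calls depends on the pairing of the libraries. Without the block 21 genes were called (17 up, 4 down), and leaving out pair 1 gave 844, pair 2 127 and pair 3 85.

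**Figure D1:**
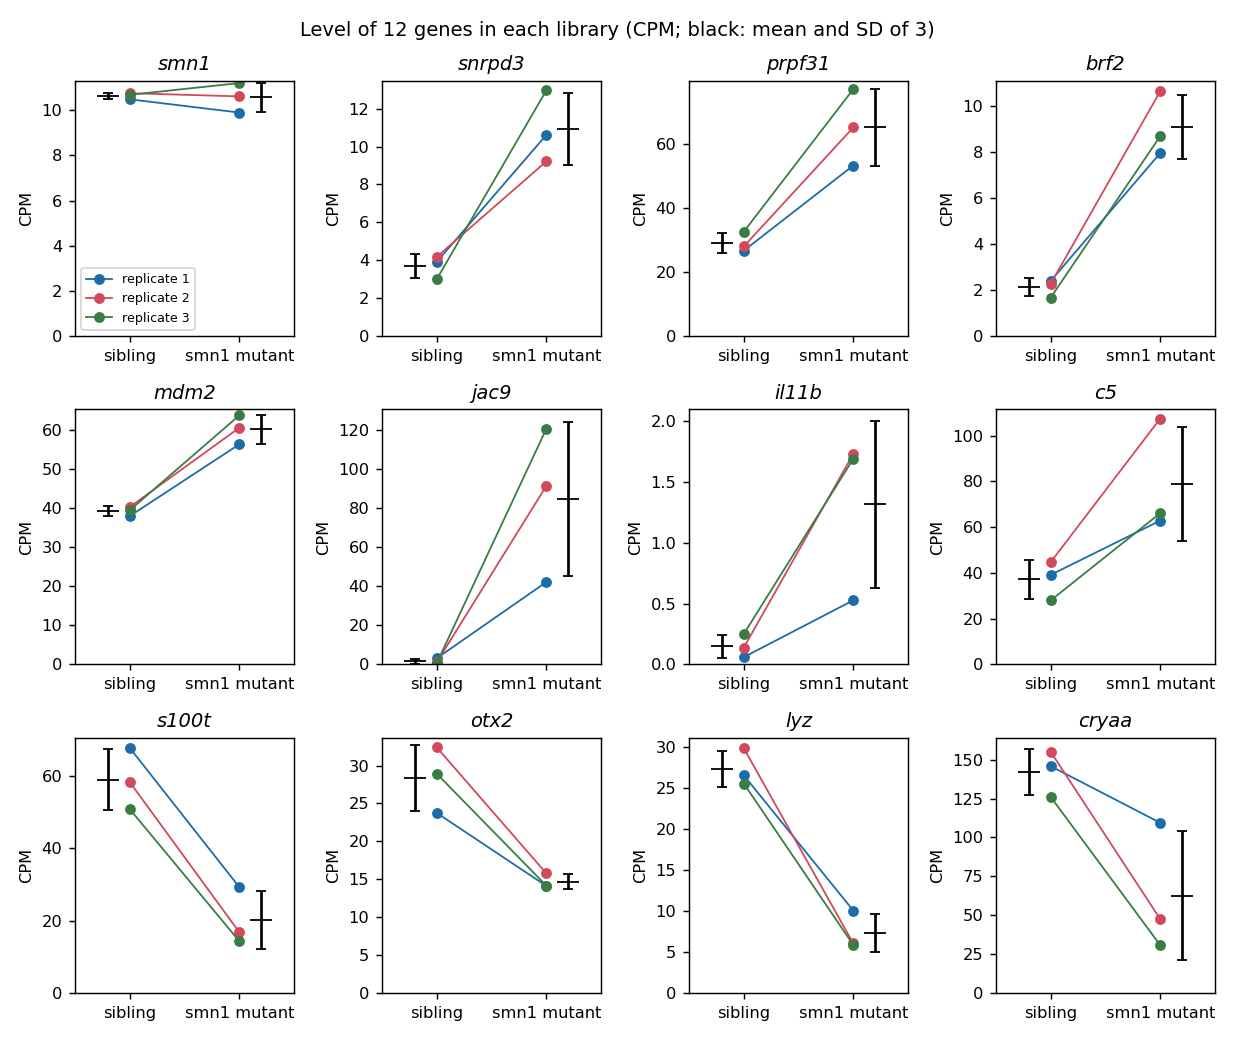
Level of 12 genes in CPM (y axis, linear, from 0) in siblings and *smn1* mutants, with a line joining the libraries of each replicate number and the mean and SD of 3 libraries in black. *smn1* itself lies between 9.90 and 11.2 CPM in all libraries, while *prpf31* rises from 26.7 to 32.7 CPM in siblings to 53.4 to 77.3 CPM in mutants and *lyz* falls from 25.6 to 29.9 CPM to 5.86 to 10.1 CPM.

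Genes for several parts of the spliceosome rose. The Sm proteins are the ring that the SMN complex puts on snRNAs. All 8 measured Sm genes were higher in mutants and 6 of them passed the test, with a median log2 fold change of 0.81 over the 8, against 0.008 over all genes. Of all genes tested, 0.847% were called higher. *snrpd3* was measured at 3.92, 4.18 and 3.01 CPM in siblings and at 10.6, 9.21 and 12.96 CPM in mutants. Its level was thus raised in each pair without overlap, by a log2 fold change of 1.56 (SE 0.174, adjusted p = 0.00645). A second entry, *SNRPD3* (ENSDARG00000076283), was at 14.08, 14.05 and 12.02 CPM in siblings and 12.77, 13.09 and 16.09 CPM in mutants. This more abundant entry was not called (log2 fold change 0.06, adjusted p = 0.839). *snrpg* was at 13.3, 11.98 and 10.6 CPM in siblings and 21.4, 25.7 and 26.5 CPM in mutants (log2 fold change 1.03, SE 0.118). *snrpd2* and *snrpe* rose by 0.83 and 0.78, and the remaining called members, *snrpf* and *snrpb*, named after their values were seen, rose by 0.94 and 0.49. The summed level of the Sm genes was 123.1 to 130.1 CPM in siblings and 182.9 to 223.9 CPM in mutants. The Sm genes had 6 calls without pair 1 and 4 without either of the others, and had none without the block.

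The related LSm ring, which sits on U6 snRNA when it holds Lsm8, rose in part. Both *lsm7* (13.01, 14.7 and 15.11 CPM in siblings against 27.3, 29.3 and 34.1 CPM in mutants) and *lsm8* (6.22, 5.87 and 8.18 against 12.7, 14.3 and 17.7 CPM) more than doubled, with log2 fold changes of 1.08 and 1.14. These were 2 of the 8 LSm genes tested, against 0.847% of all genes called higher. The other members were higher too, but none of them passed the test, and the median of the list was 0.19.

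The U5 snRNP and the U4/U6.U5 tri-snRNP bring the catalytic parts of the spliceosome. Of 18 genes for their proteins, 10 rose and none fell, with a median log2 fold change of 0.425. Over all genes tested, 0.847% rose. *prpf31*, a U4/U6 protein whose human ortholog is mutated in a form of retinal degeneration, was at 26.7, 28.0 and 32.7 CPM in siblings and at 53.4, 65.3 and 77.3 CPM in mutants. The groups were far apart, and the log2 fold change was 1.16 (SE 0.0715, adjusted p = 0.00108). The U5 GTPase *eftud2* was at 38.3, 38.1 and 38.2 CPM against 70.3, 76.6 and 80.6 CPM, a log2 fold change of 0.99 with little spread in either group. *snrnp200*, the helicase that unwinds U4 from U6, was at 133.6, 122.4 and 133.4 CPM against 210.5, 220.1 and 222.4 CPM (log2 fold change 0.75). *prpf3*, another U4/U6 protein, rose by 0.92. The other called members are named after their values were seen. They were *snu13a* (1.52), which binds the U4 stem-loop, *snrnp27* (0.59), *sart1* (0.56), *ddx23* (0.47), *prpf4* (0.45) and the U5 scaffold *prpf8* (0.40). A more abundant entry, *SNU13* (ENSDARG00000023299), was at 17.72, 18.23 and 16.86 CPM in siblings and 17.48, 20.51 and 19.65 CPM in mutants. It was not called (log2 fold change 0.124, adjusted p = 0.463). Calls numbered 10 without pair 1, 7 without pair 2, 6 without pair 3 and 2 without the block.

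Among 20 proteins of the U1 and U2 snRNPs, 4 rose, against 0.847% of all genes tested, and none fell. They were *snrpa1* (17.5, 17.2 and 16.8 CPM in siblings and 27.7, 32.9 and 35.3 CPM in mutants, log2 fold change 0.89), *sf3a2* (0.699), *htatsf1* (0.53) and *sf3b3* (0.387). Of 20 factors of the PRPF19 complex and the catalytic steps, 5 rose and none fell. *aqr*, a helicase that binds introns, was at 40.6, 36.8 and 34.5 CPM in siblings and 75.4, 74.3 and 79.8 CPM in mutants, a log2 fold change of 1.04 (SE 0.0746). *isy1*, *xab2*, *dhx16* (named after its values were seen) and *crnkl1* rose by 0.56, 0.56, 0.52 and 0.48. The medians of these lists, 0.16 and 0.096, were small, and most of their members were not called. Calls in the U1 and U2 list numbered 6, 2 and 2 without pairs 1, 2 and 3 and none without the block. In the PRPF19 list they numbered 5, 2 and 1, and 1 without the block.

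The rise did not extend to every class of splicing gene. No gene was called among 11 proteins of the minor spliceosome (median 0.011), among 37 SR and hnRNP splicing regulators (median -0.069), or among 12 factors of nonsense-mediated decay (median 0.003), all by edgeR. The SR and hnRNP genes lay between -0.268 and 0.22, with 27 of the 37 slightly lower in mutants. At an unadjusted p below 0.05 there was 1 gene of the minor spliceosome, 7 SR and hnRNP genes and 1 of nonsense-mediated decay, and DESeq2 called 0 in each. Of all 22797 genes tested, 4000 were below that unadjusted bound.

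**Figure D2:**
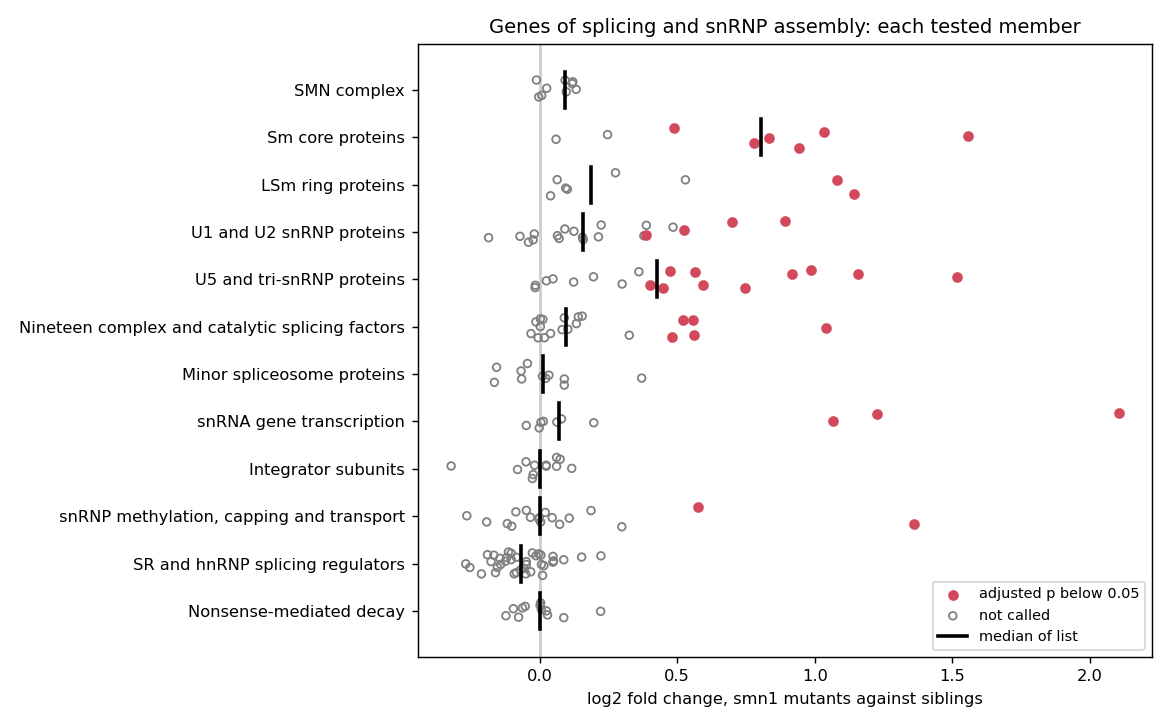
Log2 fold change in *smn1* mutants (x axis) of each tested member of 12 lists of splicing and snRNP genes (rows), with called members in red, others as open circles and the median of each list as a bar. Red points reach 1.56 among Sm proteins, 1.52 among U5 and tri-snRNP proteins and 2.10 among genes of snRNA transcription, and there are none in the SMN complex, the Integrator, the minor spliceosome, the SR and hnRNP list or nonsense-mediated decay.

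Of 10 tested genes of snRNA transcription, 3 rose (0.847% over all genes), with a median of 0.072 over the list. The same number was called without any one pair and without the block. *brf2*, the subunit that recruits RNA polymerase III to the U6 gene, was at 2.39, 2.27 and 1.67 CPM in siblings and at 7.94, 10.6 and 8.67 CPM in mutants. Every mutant library was more than 3 times its paired sibling, and the log2 fold change was 2.10 (SE 0.151, adjusted p = 0.00128). *snapc4*, the DNA-binding subunit of the complex on snRNA promoters, was at 17.0, 15.05 and 16.5 CPM against 35.0, 37.4 and 41.0 CPM (log2 fold change 1.22, SE 0.081). *ice1*, the scaffold of the little elongation complex that acts on snRNA genes, was at 24.1, 21.8 and 25.2 CPM against 42.2, 52.3 and 55.1 CPM (log2 fold change 1.07). None of the 12 Integrator subunits, which cleave the 3' end of snRNAs made by RNA polymerase II, was called, with log2 fold changes of -0.321 to 0.12 (1 at an unadjusted p below 0.05, 0 called by DESeq2). By contrast, *toe1*, an exonuclease that trims snRNA ends, and *ssb*, which binds the 3' ends of new RNA polymerase III transcripts, were called, with rises of 0.49 and 0.57. They belong to none of the lists and are named after their values were seen.

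In the list of snRNP methylation, capping and transport, 2 of 18 genes rose, against 0.847% of all genes tested. *mettl16*, the enzyme that methylates U6 snRNA, was at 7.42, 8.41 and 7.15 CPM in siblings and at 18.1, 21.9 and 19.0 CPM in mutants (log2 fold change 1.36, SE 0.081, adjusted p = 0.00108). *mat2al*, which belongs to the family of enzymes that make the methyl donor S-adenosylmethionine, rose by 0.575. The call of *mat2al* was lost without pair 2, without pair 3 and without the block, and that of *mettl16* in none of these. Among the genes with the smallest p-values was also *RNF14* (ENSDARG00000078683), a ubiquitin ligase, at 10.1, 9.58 and 8.35 CPM in siblings and 22.2, 23.2 and 22.8 CPM in mutants (log2 fold change 1.29, SE 0.0875). The levels of *RNF14* in the 3 mutants were nearly the same.

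Of 24 tested genes of DNA damage and cell cycle arrest, 5 rose (0.847% over all genes) and none fell, and the median of the list was 0.18. *mdm2*, which encodes a ubiquitin ligase, was at 37.9, 40.3 and 39.4 CPM in siblings and at 56.3, 60.5 and 63.7 CPM in mutants. The groups were narrow and well separated (log2 fold change 0.62, SE 0.0617, adjusted p = 0.00453). *rps27l*, a ribosomal protein paralog known from the DNA damage response, was at 30.3, 27.2 and 28.7 CPM against 54.3, 49.1 and 74.5 CPM (log2 fold change 1.02). *cdkn1a*, the inhibitor of cyclin-dependent kinases, was at 2.81, 1.55 and 3.62 CPM against 4.89, 4.54 and 8.48 CPM (log2 fold change 1.18), and *ccng1*, cyclin G1, rose by 0.698 from a far higher level. *phlda3*, a repressor of Akt named after its values were seen, rose by 0.60. The list had 6 calls without pair 1, 3 without pair 2, 2 without pair 3 and none without the block. Of the 34 genes of DNA replication and mitosis, only *mki67*, a marker of cycling cells, was called, and it fell by 0.42. Its libraries overlapped between groups (19.5, 25.02 and 13.3 CPM in siblings, 15.53, 17.4 and 9.92 CPM in mutants) and were lower only within each pair, and its call was lost without pair 2 or pair 3, without the block, with DESeq2 and with 18 libraries in 1 fit.

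The receptors of the ErbB family, their ligands and the genes of the Schwann cells that depend on them were of interest because the study followed this pathway. None of the 18 genes tested was called. The paper reports *erbb2* and *erbb3b* as upregulated in *smn1*, *gemin3* and *gemin5* mutants from its RNA-Seq. It used DESeq2 with no block stated, and it also tested the pathway with an inhibitor and with mutants. *erbb3b*, a receptor subunit that Schwann cells need, was at 29.6, 27.6 and 33.2 CPM in siblings and at 32.4, 35.0 and 34.3 CPM in mutants. It was higher in each pair, but the groups overlapped (log2 fold change 0.17, SE 0.0775, adjusted p = 0.299). *ERBB2*, the receptor that pairs with it, was at 27.5, 27.5 and 32.3 CPM in siblings and at 34.0, 33.6 and 30.2 CPM in mutants. It was lower in the mutant of pair 3 and higher in the other pairs (log2 fold change 0.165, SE 0.0911, adjusted p = 0.398). In *gemin5* and *gemin3* mutants the log2 fold changes were 0.205 and 0.119 for *erbb3b* and 0.14 and 0.199 for *ERBB2*. None of these was called by edgeR. The ligand gene *NRG1* was at 16.4, 17.1 and 18.5 CPM in siblings and 16.5, 17.9 and 22.2 CPM in mutants (log2 fold change 0.115, SE 0.0804, adjusted p = 0.506). *mbpa*, which encodes myelin basic protein, was at 106.8, 88.0 and 83.5 CPM in siblings and 125.5, 103.6 and 108.1 CPM in mutants. It was higher in each pair, with a log2 fold change of 0.28 (SE 0.0623) and an adjusted p of 0.0729. The list had a median of 0.090. No motor neuron gene of the 14 tested was called either, with a median of 0.054 and a range from -0.314 to 0.49. At an unadjusted p below 0.05 there were 4 genes of the ErbB list and 3 motor neuron genes, against 4000 of all 22797 genes tested. DESeq2, run here with the replicate block, called 0 in both lists. DESeq2 without the block was not run, so the comparison of the paper was not repeated.

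The largest rises were in jacalin-like lectins, a family of secreted sugar-binding proteins. *jac9* was at 3.17, 1.19 and 0.724 CPM in siblings and at 42.1, 91.2 and 120.4 CPM in mutants. Mutant 1 was the lowest of the mutants, and its sibling was the highest of the siblings. The log2 fold change was 5.55 (SE 0.499, adjusted p = 0.00266). *jac8* was at 0.957, 0.387 and 0.529 CPM against 9.17, 17.7 and 37.5 CPM (log2 fold change 5.001). *jac6* rose by 3.86 from 0.0830 to 0.149 CPM in siblings to 1.055 to 2.066 CPM in mutants, but RSEM's own error in assigning its reads reached 42.1% of the count in a library. Of the 9 jacalin genes in the annotation, 4 passed the filter on low counts, and *jac1*, the remaining one of these, did not change by the test (log2 fold change -0.092). Reads of near-identical copies may be divided differently from library to library, although for *jac9* and *jac8* the assignment error was at most 3.30% of the count.

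Other large rises were *lipib* (1.82, 1.49 and 1.34 CPM in siblings, 4.34, 20.03 and 22.6 CPM in mutants, log2 fold change 3.15), which encodes a lipase, and *bmb* (0.658, 0.526 and 0.362 against 3.22, 2.81 and 3.10 CPM, 2.57). *bmb* encodes brambleberry, known in zebrafish for the fusion of nuclear envelopes in the early embryo. *CR925768.1* (3.02), *BX640547.5* (2.93), *si:dkey-204l11.1* (2.92), *ntrnl3* (2.59), the leptin gene *lepb* (2.38) and *CABZ01085177.1* (2.18) complete the 10 largest rises at a mean of at least 1 CPM.

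The complement cascade is the set of plasma proteins that marks microbes and injured cells. Of 31 genes tested, 11 rose and none fell. In all 29 were higher in mutants, and the median log2 fold change was 0.60. Over all genes tested the median was 0.008, and 0.847% were called higher. *c5* was at 39.1, 44.7 and 28.0 CPM in siblings and at 62.8, 107.4 and 66.1 CPM in mutants (log2 fold change 1.06, SE 0.112, adjusted p = 0.00531). The factor H-like genes *cfhl1* and *cfhl5* rose by 2.15 and 1.60, and the C1 inhibitor gene *serping1* by 0.84. Further called members, named after their values were seen, were *c4b* (1.51), *c3a.3* (1.36), *cfh* (1.12), *cfb* (1.12), *c4* (0.92), *c3a.6* (0.55) and *c6* (0.52). Mutant and sibling libraries overlapped for *c3a.3*, *c3a.6* and *c6*. The rise was uneven among pairs. *cfb* was at 53.4, 67.3 and 52.3 CPM in siblings and at 70.1, 206.1 and 130.7 CPM in mutants, so that pair 1 changed least and pair 2 most. The median of the list was 0.285 in pair 1, 0.87 in pair 2 and 0.54 in pair 3.

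Cytokines that act through Stat3 are known to induce complement and other acute-phase genes in the liver. In the list of il11 and stat3 signalling, 9 of 26 genes rose, against 0.847% of all genes tested, and none fell. The median of this list was 0.47 over all pairs and 0.14, 0.61 and 0.68 in pairs 1 to 3. *il11b*, a cytokine of the interleukin 6 family, was at 0.0598, 0.138 and 0.251 CPM in siblings and 0.527, 1.73 and 1.69 CPM in mutants. These are low levels, yet no mutant overlapped a sibling (log2 fold change 3.11, SE 0.336, adjusted p = 0.00596). *lepb*, leptin b, was at 0.478, 0.637 and 0.807 CPM in siblings and 0.615, 4.31 and 6.39 CPM in mutants. Mutant 1 lay within the range of the siblings, and the rise came from pairs 2 and 3. *socs3a* (ENSDARG00000025428), a feedback inhibitor of this pathway, was at 10.6, 16.9 and 15.9 CPM against 23.2, 44.8 and 78.6 CPM. A second identifier carries the same symbol, and the assignment error for *socs3a* reached 31.3% of a count. Its paralog *socs3b* rose by 0.66, and the AP-1 genes *fosab* and *junba*, whose groups overlapped, by 1.15 and 0.75. *myclb*, *crlf1a* and *cebpd* were also called (0.72, 0.44 and 0.41), and these 3 with *socs3b* and *junba* were named after their values were seen. Among 29 liver acute-phase and plasma protein genes, 27 were higher, and *apobb.2* (1.83), *serpina7* (1.56) and *cp* (0.81), the copper carrier ceruloplasmin, were called. *apobb.2* was low, at 0.897, 0.277 and 0.278 CPM in siblings and 2.81, 1.63 and 0.689 CPM in mutants, and its groups overlapped. For *cp*, siblings were at 81.6, 120.5 and 66.1 CPM and mutants at 105.1, 285.8 and 116.3 CPM. Without pair 1 the called members numbered 19 in the complement list, 19 in the stat3 list and 13 in the liver list. Without pair 2 they numbered 2, 3 and 1 upward (with 1 complement gene called lower), and without pair 3 they numbered 1, 3 and 1. None was called without the block.

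**Figure D3:**
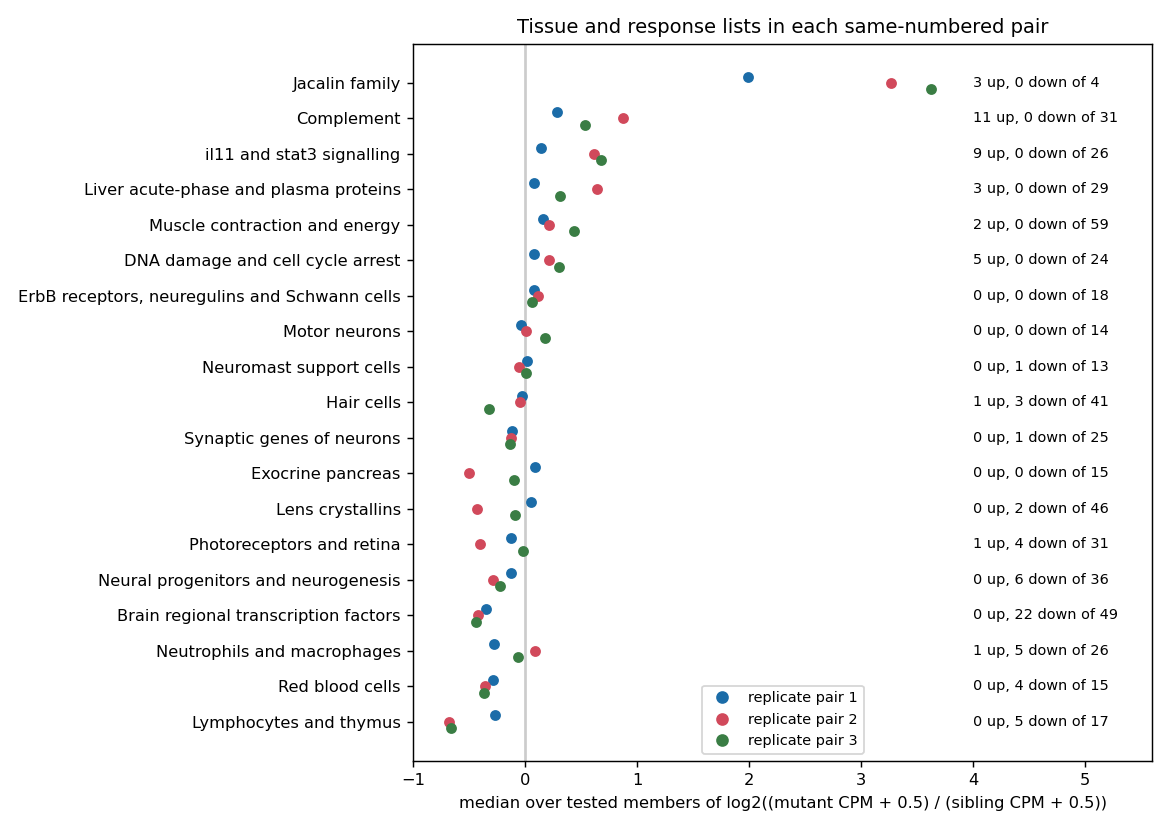
Median over the tested members of 19 lists (rows) of the log2 ratio of mutant to sibling CPM, with 0.5 added to each CPM (x axis), in each same-numbered pair (colours), and the number of members called up and down. Pair 1 has the smallest median of the pairs in the complement, stat3 and liver lists, with 0.285, 0.14 and 0.073, while the list of brain transcription factors is between -0.444 and -0.348 in all pairs.

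Hair cells are the sensory cells of the ear and the lateral line, the latter being those killed by copper. Of 41 hair cell genes tested, 3 fell and 1 rose, against 0.689% called lower and 0.847% called higher over all genes. *pvalb8*, a parvalbumin found in hair cells, was at 94.1, 60.6 and 67.3 CPM in siblings and at 30.2, 25.1 and 17.97 CPM in mutants. *s100t*, another calcium-binding protein of hair cells, was at 67.8, 58.3 and 50.8 CPM against 29.3, 16.8 and 14.3 CPM. Both fell by 1.60 on the log2 scale (SE 0.110 and 0.120, adjusted p = 0.00108 and 0.00134), to about 33.0% ± 8.32 and 34.1% ± 13.6 (SD, n = 3) of the sibling level. *otofb*, one of the otoferlins that act in the release of synaptic vesicles, was at 41.7, 38.4 and 41.4 CPM against 23.9, 18.9 and 19.9 CPM (log2 fold change -0.96). *tmprss3a*, a membrane protease whose human ortholog is a deafness gene, went the other way, from 7.36, 5.65 and 10.2 CPM to 12.8, 10.8 and 19.4 CPM (0.89). It was lower, without a call, in *gemin5* mutants (-0.557), and its change in *gemin3* mutants was 0.060. The other 37 hair cell genes were not called. Among them, the motor protein gene *myo7aa*, named after its values were seen, was at 20.5, 19.2 and 21.0 CPM in siblings and 16.9, 17.0 and 14.9 CPM in mutants (log2 fold change -0.317, adjusted p = 0.116). The list as a whole had a median of -0.091, with -0.026, -0.047 and -0.328 in pairs 1 to 3. Its summed level was 535.7 to 594.4 CPM in siblings and 404.0 to 465.2 CPM in mutants. That sum includes *pvalb8*, *s100t* and *otofb*, and its fall is largely theirs. Their means were 73.98, 58.98 and 40.53 CPM in siblings and 24.42, 20.12 and 20.89 CPM in mutants. The same counts of 3 falls and 1 rise were seen without any one pair, and 1 fall was called without the block. The paper counted fewer regenerated lateral line hair cells in *smn1*, *gemin5* and *gemin3* mutants at 2 days after ablation. From the RNA of whole larvae alone, fewer hair cells and less RNA per hair cell cannot be told apart. The same limit holds for every tissue described here.

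Several genes without a well-known role fell as steeply as these. *si:dkey-4p15.5* was at 38.4, 22.7 and 31.3 CPM in siblings and at 8.76, 4.35 and 3.13 CPM in mutants (log2 fold change -2.56, SE 0.192). *si:dkey-205h13.2* was at 47.2, 61.9 and 48.8 CPM against 16.9, 12.5 and 9.49 CPM (-2.04), and *fndc7b*, a fibronectin type III domain gene, at 10.8, 9.35 and 8.40 CPM against 2.87, 2.09 and 1.25 CPM (-2.23). In all of them the groups were clearly separate, and mutant 1 had the highest level of the mutants. The same was seen for *si:ch211-229d2.5* (-1.91), *CABZ01067232.1* (-2.04) and *si:dkeyp-110c7.4* (-1.99). *cd109*, a protein on the cell surface, fell by 1.03. *lamp3* fell by 2.09, with groups that overlapped because sibling 2 was at 4.59 CPM and the other siblings at 0.748 and 1.197 CPM. Among 13 genes of the support cells of neuromasts, only *prox1a*, a transcription factor, was called (-0.343), a call lost without pair 2, pair 3 or the block, and the median of the list was 0.061.

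Brain transcription factors had the highest number of called falls of the 39 lists. Of 49 transcription factors of brain regions, 47 were lower in mutants and 22 passed the test, with a median log2 fold change of -0.431. Over all genes tested the median was 0.008, and 0.689% were called lower. None rose. *otx2*, a factor of the forebrain, midbrain and retina, was at 23.7, 32.4 and 28.9 CPM in siblings and at 14.1, 15.8 and 14.2 CPM in mutants. Its mutant level was 0.595, 0.487 and 0.489 of the sibling level in pairs 1 to 3 (log2 fold change -0.94, SE 0.084, adjusted p = 0.00266). *eomesa*, a factor of the forebrain, was at 12.5, 11.3 and 11.5 CPM against 7.35, 6.44 and 6.76 CPM (-0.78). *bcl11ba* and *tfap2b* fell by 0.57 and 0.60. Named after their values were seen, *barhl1a* (-0.98), *en2a* (-0.85), a factor of the midbrain-hindbrain boundary, *foxg1a* (-0.62), a factor of the telencephalon, and *pax6a* (-0.35) were called as well. Of 36 genes of neural progenitors and neurogenesis, 6 fell, with a median of -0.216 over the list. Falls in this list numbered 6, 2 and 2 without pairs 1, 2 and 3 (with 1 rise without pair 1 or pair 2) and none without the block. *sox12* was at 28.7, 34.7 and 36.9 CPM in siblings and 18.5, 18.3 and 23.1 CPM in mutants (-0.74). *tubb5*, *neurod4* and *sox4a* fell by 0.71, 0.47 and 0.43, as did the zinc finger gene *insm1a* and the Notch ligand gene *dla*, named after their values were seen (-0.71 and -0.59). Groups overlapped for *neurod4*. Of 25 genes of mature synapses, only *slc17a7a*, the vesicular glutamate transporter, fell (-0.68, a call lost without pair 2, pair 3 or the block), and the median was -0.126. The list of brain factors had 28 called members without pair 1, 3 without pair 2, 1 without pair 3 and none without the block.

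In the eye, 4 of 31 genes of photoreceptors and retina fell and 1 rose, against 0.689% called lower and 0.847% called higher over all genes. *crx*, the transcription factor of photoreceptors, was at 73.4, 67.4 and 86.3 CPM in siblings and at 49.9, 46.9 and 50.9 CPM in mutants (log2 fold change -0.62, SE 0.0688). *rs1a*, which encodes retinoschisin, *pou4f2*, a factor of retinal ganglion cells, and *vsx1*, a factor of bipolar cells, fell by 0.54, 0.54 and 0.62. Groups overlapped for *vsx1*. *rbp4l*, a retinol-binding protein gene, rose by 1.06, from 303.2 to 341.5 CPM in siblings to 445.5 to 891.5 CPM in mutants. Without pair 1 there were 7 falls and 4 rises in this list, without pair 2 there was 1 fall, without pair 3 there were 2, and none was called without the block. Of 46 lens crystallin genes tested, only *cryaa* and *cryba1l2* were called. *cryaa*, the alpha-crystallin of the lens, was at 145.8, 155.0 and 126.0 CPM in siblings and at 109.4, 47.5 and 30.7 CPM in mutants. Mutant 1 was nearest to its sibling, and pairs 2 and 3 carried the change (log2 fold change -1.38, SE 0.262, adjusted p = 0.0495). The call of *cryaa* was lost with DESeq2 and with RLE normalization. Without pair 1, 11 crystallins were called lower and 1 higher, and without pair 2 or pair 3 none was.

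Of 26 genes of neutrophils and macrophages, 5 fell and 1 rose, against 0.689% called lower and 0.847% called higher over all genes. *lyz*, the lysozyme of myeloid cells, was at 26.6, 29.9 and 25.6 CPM in siblings and at 10.1, 6.04 and 5.86 CPM in mutants, a fall of 1.92 on the log2 scale (SE 0.159, adjusted p = 0.00204) to 26.8% ± 8.67 (SD, n = 3) of the sibling level. The neutrophil genes *npsn* (13.8, 15.6 and 11.9 CPM against 7.97, 5.42 and 6.51 CPM) and *mpx*, myeloperoxidase (14.4, 18.6 and 14.4 CPM against 10.1, 12.3 and 8.52 CPM), fell by 1.05 and 0.62. The receptor gene *csf1rb* fell by 0.74 and *wasa*, a regulator of actin in leukocytes named after its values were seen, by 1.25. *mpeg1.2*, a perforin gene of macrophages, rose by 0.50. The list had a median of -0.082, and its summed level was 369.3 to 484.7 CPM in siblings and 315.9 to 553.0 CPM in mutants, so the fall was not shared by all its members. Without pair 1 there were 5 falls and 4 rises, with a median of 0.054. Without pair 2 there were 2 falls, and without pair 3 or without the block there was 1, with no rise in any of these.

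Of 17 lymphocyte genes tested, 15 were lower in mutants and 5 fell, with a median of -0.63. For comparison, 0.689% of all genes tested were called lower, and the median over all of them was 0.008. *rag1*, which recombines antigen receptor genes in immature lymphocytes, was at 6.22, 11.2 and 7.60 CPM in siblings and at 2.05, 1.70 and 0.908 CPM in mutants (log2 fold change -2.41, SE 0.248, adjusted p = 0.00503). *cytip* was at 1.41, 1.74 and 1.25 CPM against 0.322, 0.327 and 0.344 CPM (-2.13), and *il2rb*, an interleukin receptor subunit, fell by 1.60. *myb* and *lef1* (the latter named after its values were seen) fell by 0.58 and 0.40, and both are also used by other cells. All 15 genes of red blood cells tested were lower in mutants, and 4 passed the test. The embryonic globin gene *hbbe1.1* was at 353.8, 441.1 and 291.3 CPM in siblings and at 237.8, 281.0 and 184.8 CPM in mutants (-0.63, SE 0.0645), and *hbae3* (-0.517), *hbbe2* (-0.675) and the anion exchanger *SLC4A1* (-0.685) fell as well. The groups of *hbae3* came close (201.5 CPM in sibling 3, 179.0 CPM in mutant 2), and those of *hbbe2* and *SLC4A1* overlapped. Lymphocyte calls numbered 11 without pair 1 and 1 without either other pair, red blood cell calls 5, 2 and 1 without pairs 1, 2 and 3, and both lists had none without the block.

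The largest fall of all belonged to *he1a*, a hatching enzyme gene, whose counts were 54, 288 and 25 in siblings and 2, 1 and 3 in mutants. Over the pooled counts the siblings held 58.1 times the mutant level (95% interval 26.4 to 159, exact and for counting error only). Sibling 2 held most of these counts. Without pair 2 the ratio was 15.8 (6.49 to 49.9), and without pair 1 or pair 3 it was 70.8 or 108. The siblings differed more than 10-fold among themselves, and the assignment error reached 42.0% of a count. Of the other hatching gland genes, 3 were tested and none was called. A retroviral gene, *erv*, fell from 47.0, 53.2 and 50.5 CPM to 30.7, 28.2 and 28.7 CPM (-0.78).

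Few genes were called in lists that stand for the general state of the larva. No gene was called among 75 cytoplasmic ribosomal proteins (log2 fold changes of -0.125 to 0.13) or 43 proteasome subunits (median 0.043). *atf5a* fell by 0.43 and was the only called gene of 22 in the list of the unfolded protein and integrated stress responses. *txn*, thioredoxin, rose by 0.45 and was the only called gene of 20 in the list of copper and oxidative stress. None of 15 exocrine pancreas genes and none of 15 interferon response genes was called, with medians of -0.171 and 0.29. At an unadjusted p below 0.05 there were 0 ribosomal protein, 1 proteasome, 2 pancreas and 6 interferon response genes, and DESeq2 called 2 of the pancreas and 0 of the other lists. Of all 22797 genes tested, 4000 were below that unadjusted bound. Muscle genes were higher in 57 of 59 cases, with a median of 0.26 against 0.008 over all genes tested. However, only *cmya5* (1.24) and the glycogen phosphorylase gene *pygma* (0.397) passed the test. At an unadjusted p below 0.05 there were 39 muscle genes, and DESeq2 called 18. Without pair 1, 11 were called higher and 1 lower, without pair 2 or pair 3 there was 1 call, and without the block none. *cmya5* was at 11.2, 8.08 and 3.92 CPM in siblings and 23.5, 17.5 and 11.9 CPM in mutants. Among 19 matrix metalloproteinases and their inhibitors, *mmp2* and *mmp15a* rose by 0.465 and 0.49. The calls of *atf5a*, *txn* and *mmp15a* were lost without pair 2 or pair 3, those of *mmp2* without pair 3, and all of them without the block. The call of *mmp15a* was also lost without pair 1 and with DESeq2. These tissue lists moved beside one another, and the part that a shift in the make-up of the larva had in any single result was not tested.

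*gemin5* and *gemin3* mutants, each against their own siblings, were set beside the *smn1* mutants. In separate fits with the replicate block, 4.41% of the genes tested rose and 3.11% fell in *gemin5* mutants, and 1.04% rose and 0.941% fell in *gemin3* mutants. Of the genes that rose in *smn1* mutants, 143 also rose in *gemin5* mutants (74.1% of the *smn1* list and 14.3% of the *gemin5* list) and 81 in *gemin3* mutants (42.0% and 32.1%). Of those that fell in *smn1* mutants, 120 also fell in *gemin5* mutants (76.4% and 17.1%) and 38 in *gemin3* mutants (24.2% and 16.7%). Of the 350 genes, 79 were called in neither of the others (46 up, 33 down). The 3 families had separate sibling controls. In *smn1*, *gemin5* and *gemin3* mutants, the log2 fold change of *prpf31* was 1.16, 1.27 and 0.94, that of *brf2* 2.10, 2.24 and 2.04, *mettl16* 1.36, 1.43 and 1.00, and *mdm2* 0.62, 0.66 and 0.68. For the Sm genes, 6, 6 and 5 of 8 rose. For the U5 and tri-snRNP genes, 10, 12 and 8 of 18 rose. For the brain factors, 22, 29 and 7 of 49 fell, with medians of -0.431, -0.409 and -0.334. The complement list had 11 called up of 31 in *smn1* mutants, 24 of 30 in *gemin5* and 18 of 31 in *gemin3* mutants, and the crystallins had 2 of 46, 36 of 44 and 10 of 46 called down. In the same order, medians were 0.604, 0.986 and 0.682 for complement and -0.171, -0.779 and -0.38 for crystallins. Each count depends on the spread within its own family, so fewer calls need not mean a smaller effect.

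The difference between effects was then tested directly. Between *smn1* and *gemin5* mutants, none of 23396 genes differed by edgeR (0%), with 1341 at an unadjusted p below 0.05 and a smallest adjusted p of 0.13. *GEMIN5* itself was at -0.768 in *gemin5* mutants (adjusted p = 0.00168) and at 0.093 in *smn1* mutants. Even its difference of 0.867 (SE 0.127) was not called (adjusted p = 0.13). The lack of calls therefore does not show that the effects were equal. Between *smn1* and *gemin3* mutants, 34 of 24325 genes differed (0.14%), and 16 of the 34 are among the genes called in *smn1* mutants. Among these were genes that fell in *smn1* mutants and were not called in *gemin3* mutants. The effect on *s100t* was -1.60, -1.35 and 0.081 on the log2 scale in *smn1*, *gemin5* and *gemin3* mutants, and the difference of *smn1* from *gemin3* was -1.68 (SE 0.258, adjusted p = 0.0479). *si:dkey-4p15.5* had -2.56, -1.94 and 0.19, *fndc7b* had -2.23, -1.38 and -0.050, *si:dkey-205h13.2* had -2.04, -1.49 and 0.013, *si:ch211-229d2.5* had -1.91, -1.73 and 0.395, and *cbln18*, of the cerebellin family, had -2.48, -1.38 and 0.13. Their differences from *gemin3* mutants were called (adjusted p from 0.0108 to 0.0491). The other hair cell genes that fell, *pvalb8* (-1.60, -1.17 and -0.484) and *otofb* (-0.961, -0.645 and -0.127), pointed the same way, but their differences of -1.12 (SE 0.223) and -0.836 (SE 0.183) were not called (adjusted p = 0.149 and 0.192). The *gemin3* family was sequenced on another instrument with longer reads, 150 bases in place of 125. Each effect was taken within a family, and the part of the instrument in the differences was not tested. Without the block 1 gene differed, and without a pair 4 to 17 did.

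**Figure D4:**
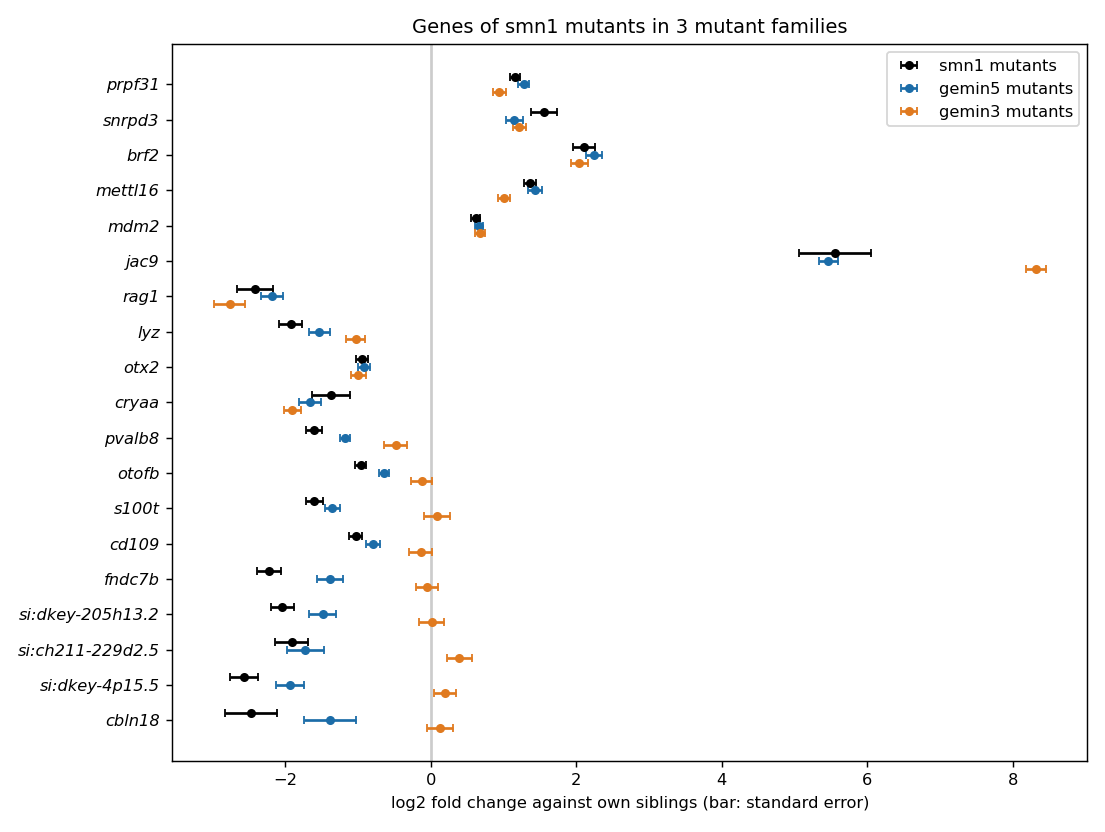
Log2 fold change against own siblings (x axis, with standard errors as bars) of 19 genes in *smn1* (black), *gemin5* (blue) and *gemin3* (orange) mutants. From *prpf31* to *cryaa* all families lie on the same side of 0, whereas *s100t*, *fndc7b*, *si:dkey-205h13.2*, *si:ch211-229d2.5*, *si:dkey-4p15.5* and *cbln18* are at -1.60 or below in *smn1* mutants and between -0.050 and 0.395 in *gemin3* mutants.

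In the opposite direction, several genes were not called in *smn1* mutants and were lower in *gemin3* mutants. *DDX20*, the *gemin3* gene itself, was at 11.3, 11.7 and 11.9 CPM in *smn1* siblings and 11.2, 10.1 and 13.7 CPM in *smn1* mutants, while it fell by 1.02 in *gemin3* mutants (difference 1.01, SE 0.136, adjusted p = 0.0243). Unlike these, *tnfrsf14*, a receptor of the TNF family, was called in *smn1* mutants, where it rose by 0.635 (adjusted p = 0.0374). In *gemin3* mutants *tnfrsf14* fell by 2.79. Its level was set mostly by the pair, at 8.25, 0.111 and 15.4 CPM in *smn1* siblings and 12.1, 0.0980 and 25.6 CPM in mutants. *ntrnl3* rose in both, by 2.59 in *smn1* and 5.28 in *gemin3* mutants, so its difference of -2.68 was negative.

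Because the SMN complex serves splicing, a readout of isoform use was taken that does not rest on the level of a gene. RSEM gives each gene a mean length of its transcripts, weighted by their abundance, which moves when the shares of annotated isoforms move. In 10341 genes with at least 1 TPM in all 6 libraries and a length that was not constant, no mean length was called by limma (0%), with 624 genes at an unadjusted p below 0.05 (6.03% of those tested, 317 longer and 307 shorter) and a smallest adjusted p of 0.679. The median absolute difference was 0.0125 on the log2 scale, and for 99% of genes it was at most 0.221. The median standard error was 0.0149. With 3 pairs, shifts that separated the groups could still go uncalled. Picked after its values were seen, *SPECC1L* averaged 3722 bases in every sibling and 2992, 3089 and 2896 in mutants. *MBIP*, picked likewise, was at 1102, 1155 and 1124 bases in siblings and 1306 in every mutant. Neither was called (limma adjusted p = 0.679 and 0.697). The lack of calls therefore does not show that isoform use was unchanged. Among the 160 genes that also had a called change of level, 13 (8.12%) were at an unadjusted p below 0.05. This measure sees only isoforms of the annotation that differ in length, and retained introns or unannotated junctions were not measured. The paper lists misspliced genes for each set of mutants and siblings and calls such events relatively limited.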

How the data were processed

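RNA was sequenced as paired 125-base reads. Per the labels, Trimmomatic 0.36, STAR 2.5.4a and RSEM are among the tools of the submitters' processing notes, and the build was danRer10 (GRCz10). The authors deposited RSEM expected counts, TPM, and a mean transcript length and an assignment error per gene, which are values of RSEM with no normalization between libraries. Expected counts were rounded. Genes passed edgeR's filterByExpr (22797 of 34707 identifiers), with TMM normalization and a design of replicate number plus genotype (edgeR 4.0.16). Differences between families used the same fit on 12 libraries with a block for each family and number. Log2 lengths were tested by limma 3.58.1 (eBayes with trend). DESeq2 1.42.0 and R 4.3.3, Python 3.11.15, pandas 2.3.3, scipy 1.17.1 and matplotlib 3.10.9 were also used. The replicate numbers come from the labels, and same-numbered libraries correlated as given in the text, each over 0.1, so they were treated as pairs. Libraries of a group were not copies (chi-square per degree of freedom 20.8 or more). Standard errors are the absolute log2 fold change over the square root of F. Symbols came from the study's tables for 2211 identifiers and from a gene table for 25163, and where that table gives a fish gene its human symbol, capitals were kept.

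On simulated counts, 100 of 100 genes changed by 2-fold and 100 of 100 changed by 4-fold were recovered among 22813 genes, with 9 false calls. For the difference between the *smn1* and *gemin5* effects, 94 of 100 changed by 2-fold were recovered, with 8 false calls. The simulation gave all genes the same small dispersion, spared low counts and used equal effects in all pairs. It does not measure how well the uneven effects of these data were recovered. The comparison, the 39 gene lists and the tests were chosen with earlier results of these data known. Genes were named by a rule: the SMN complex, the 10 largest changes each way (at least 1 CPM, the same direction in all pairs), the 10 smallest p-values each way, up to 4 called members of each list each way, genes the study discusses, and the 6 largest differences from another family each way. Genes outside it are marked as named after their values were seen. 1 gene is not reported here. 50 symbols of the lists matched no identifier and were left out. Alternatives were no block, DESeq2, RLE normalization, no or a stricter filter, 18 libraries in 1 fit, and leaving out each pair. Medians of lists under these settings, and the ratio of *he1a* without each pair, were added after seeing the data.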

Additional observations from a re-analysis of the deposited data

Results flagged for a closer look

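The effect in *smn1* mutants differed from that in *gemin3* mutants by the test of the difference itself (edgeR) for 17 of the genes named. Lower in *smn1* mutants relative to *gemin3* mutants were *si:dkey-58f10.7* (a log2 difference of -3.00), *si:dkey-4p15.5* (-2.75), *ntrnl3* (-2.68), *cbln18* (-2.61), *si:dkeyp-110c7.4* (-2.38), *si:ch211-229d2.5* (-2.30), *fndc7b* (-2.17), *si:dkey-205h13.2* (-2.06) and *s100t* (-1.68). Higher were *si:ch211-163b2.2* (4.38), *SCARNA2* (3.80), *si:ch211-261n11.9* (3.52), *tnfrsf14* (3.42), *p2rx7* (3.36), *si:ch211-261n11.8* (3.10), *DDX20* (1.01) and *asah2* (0.775). *si:dkey-58f10.7* fell by 2.32 in *smn1* mutants, while its log2 fold change was 0.044 in *gemin5* mutants. Of the genes higher, *si:ch211-261n11.8* was at 0 CPM in both libraries of pair 2 and at 1.76 to 2.85 CPM in the other 4, and *si:ch211-261n11.9* was also at 0 in pair 2. *SCARNA2*, an RNA of Cajal bodies, was at 0.387 to 1.44 CPM.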

How the results depend on the processing

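The 350 called genes kept their direction under every alternative in which they were tested. Calls numbered 794 with 18 libraries in 1 fit (328 of the 350 among them), 566 without a low-count filter, 21 without the replicate block (all among the 350), and 85 to 844 when a pair was left out. DESeq2 gave 389 (270 of the 350 among them), RLE normalization 324 and a mean of at least 1 CPM 344, with the block in each. Among the named genes called by edgeR, DESeq2 called 121, lost 18 and gave no adjusted p for the rest. Of 148 called genes that are named, 129 were no longer called without the block, 4 without pair 1, 76 without pair 2 and 88 without pair 3. The difference from *gemin5* mutants gave 1 to 3 genes when a pair was left out and 0 otherwise. That from *gemin3* mutants gave 1 gene without the block, 4 to 17 without a pair and 37 with RLE normalization. No mean length was called in any setting. Genes that were not called changed sign in places. When a pair was left out, *smn1* lay between -0.052 and 0.021, *STRAP* between -0.024 and 0.030, *DDX20* between -0.11 and 0.10, and *si:ch211-163b2.2* between -0.301 and 0.082, and *gemin6* was at -0.020 without pair 1. *DDX20* was at 0.0050 without the block and with 18 libraries. The causes were not tested.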

Other observations

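Some called genes are known from the absorptive cells of the intestine. They were picked because they were called, so they say nothing of such genes as a group, which no list covered. The brush border genes *vil1* (140.1, 130.8 and 101.8 CPM in siblings, 195.2, 169.8 and 140.9 CPM in mutants, log2 fold change 0.44) and *vill* (0.71), the meprin gene *mep1a.1* (0.585), the ceramidase gene *asah2* (0.57), the peptide transporter gene *slc15a1a* (0.46), the guanylin receptor gene *gucy2c* (0.387) and the glucose transporter gene *slc5a1* (0.33) each passed edgeR's test in *smn1* mutants. In *gemin3* mutants their log2 fold changes lay between -0.203 for *asah2* and 0.71 for *vill*, and in *gemin5* mutants between 0.023 for *vil1* and 0.89 for *slc15a1a*. Levels of *asah2* and *slc15a1a* differed more between pairs than between genotypes. *asah2* was at 28.5, 18.8 and 9.49 CPM in siblings and at 42.0, 28.9 and 13.7 CPM in mutants.

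The fish genes *fndc7a* (-1.45), *anxa5a* (-1.35), *pvalb5* (-1.72), *cbln20* (-1.70) and *pth2* (-1.60), also picked after their values were seen, fell in *smn1* mutants with log2 fold changes between -0.513 and 0.15 in *gemin3* mutants. In *gemin5* mutants they lay between -1.357 for *pvalb5* and -0.994 for *pth2*, and *fndc7a*, *anxa5a* and *pvalb5* were called lower there too. Their differences between the families were not called. *pth2*, a neuropeptide gene of the brain, was at 1.73, 1.77 and 1.25 CPM in siblings and at 0.733, 0.425 and 0.407 CPM in mutants. *ccnh*, the cyclin of the kinase that acts on RNA polymerase II, was at 4.16, 4.48 and 4.59 CPM in siblings and 7.62, 8.76 and 9.08 CPM in mutants, with log2 fold changes of 0.94 in *smn1*, 0.83 in *gemin5* and 0.42 in *gemin3* mutants.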
